A study of Homo sapiens with 12 samples.

Results

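CCR7 is the gene of a chemokine receptor, and its row was followed through a table of read counts for 53717 genes in 12 RNA sequencing libraries. It is 1 gene of that table. It was selected on its counts in these same libraries, as the gene with the largest rise under an antisense oligonucleotide against LINE1 from a control level near 0, so its own levels and fold changes are given as a description with no test.

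The libraries came from H9, a long-established line of human embryonic stem cells grown in RSeT, a commercial medium for naive-state culture. All cells were lipofected with 25 nM of a fluorescein-labelled oligonucleotide. ASO-Ctr is a control oligonucleotide aimed at no specific target, sO-L1 is the sense oligonucleotide to LINE1 (L1, a family of transposable elements), and ASO-L1 is the antisense one, with 4 libraries each. All 3 groups also received 0.7 uM Trans-ISRIB, 5 uM emricasan (a caspase inhibitor) and 10 uM Y-27632 (a ROCK inhibitor) for the first 24 h. Fluorescent cells were sorted 48 h after transfection, so the libraries describe cells that took up oligonucleotide. The labels number the replicates 1 to 4 in each group and do not state whether they were separate cultures, so the spread between libraries may be technical in part. LINE1 RNA was not analysed here, and the knockdown itself was therefore not checked.

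CCR7 is a G protein-coupled receptor for the chemokines CCL19 and CCL21. It is best known on naive T cells, B cells and mature dendritic cells, which it guides into lymph nodes and to the T cell zones within them. The receptor couples to Gi proteins, is phosphorylated by GRK kinases and bound by arrestins, and the atypical receptor ACKR4 removes the same ligands without G protein signalling. The gene lies on chromosome 17, on the minus strand. In GENCODE release 29 it has 3 transcripts, of which CCR7-201 has 2173 bases in 3 exons, 1134 of them coding. The first 90 coding bases of that transcript are shown 5′ to 3′ with the start codon in capitals. They are reference sequence, and the counts, made per gene, do not tell which transcript was read.

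CCR7-201: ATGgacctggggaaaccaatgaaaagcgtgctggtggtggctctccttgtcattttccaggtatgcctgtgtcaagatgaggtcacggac

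None of the 2124 windows of 50 bases along CCR7-201 occurred in an annotated transcript of another gene (0 windows), and 0 annotated genes overlapped CCR7. A perfect match of that length to CCR7-201 thus belongs to no transcript of another gene in GENCODE release 29. CCR7 sequence outside CCR7-201 was not checked, nor was the annotation behind the counts.

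CCR7 was close to absent under both control oligonucleotides. The 4 ASO-Ctr libraries held 5, 4, 0 and 5 CCR7 reads (replicates 1 to 4), and the 4 sO-L1 libraries held 4, 7, 6 and 2. The 4 ASO-L1 libraries held 500, 223, 251 and 134. Each ASO-L1 library thus had more CCR7 reads than the 8 other libraries together, which held 14 in ASO-Ctr and 19 in sO-L1, against 1108 in ASO-L1.

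Depth did not follow these differences. Counted reads per library ran from 22830900 to 55056000, and mitochondrial genes took 5.59% to 6.48% of them. In CPM (reads of a gene per 1e+06 counted reads, scaled between libraries by the TMM method), CCR7 stood at 0.214, 0.0955, 0 and 0.145 in ASO-Ctr, a mean of 0.114 ± 0.0900 (SD, n = 4). In sO-L1 it stood at 0.115, 0.125, 0.176 and 0.0655 CPM, a mean of 0.120 ± 0.0455 (SD, n = 4). In ASO-L1 it stood at 18.0, 5.41, 8.63 and 3.88 CPM, a mean of 8.98 ± 6.34 (SD, n = 4). The ASO-L1 libraries lay above all others without overlap, whereas the ranges of ASO-Ctr and sO-L1 overlapped. In ASO-Ctr replicate 3, 3 reads would be 0.0945 CPM, and the exact Poisson 95% interval of its 0 reads reaches 0.116 CPM.

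**Figure D1:**
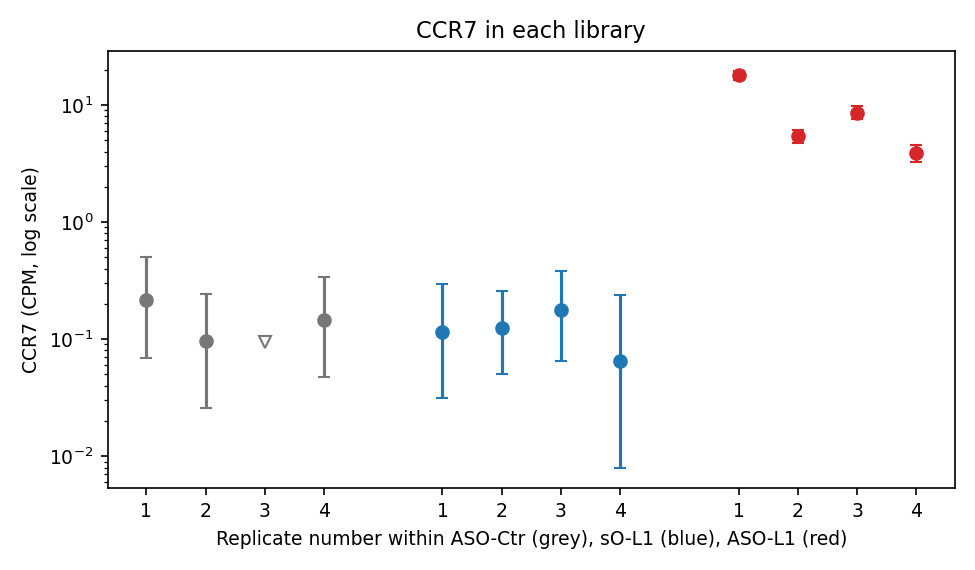
CCR7 in CPM (log axis) in each library, by replicate number, for ASO-Ctr (grey), sO-L1 (blue) and ASO-L1 (red); bars are exact Poisson 95% intervals of the read count, and the open triangle marks the level of 3 reads in the library with 0 reads. The 4 ASO-L1 libraries sit between 3.88 and 18.0 CPM, and the other 8 at or below 0.214 CPM.

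The ASO-L1 libraries differed among themselves by more than counting error. Replicate 1 was the highest and replicate 4 the lowest, 4.64-fold apart. Their exact Poisson 95% intervals, 16.5 to 19.7, 4.72 to 6.17, 7.59 to 9.76 and 3.25 to 4.60 CPM for replicates 1 to 4, did not overlap one another. Such intervals cover counting error only.

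The rise was present within each replicate number, and its size is limited by the few control reads. Against the ASO-Ctr library of the same number, the CPM ratio was 84.2 in replicate 1 (exact 95% interval 35.8 to 260), 56.6 in replicate 2 (21.8 to 210) and 26.8 in replicate 4 (11.2 to 83.9). In replicate 3, where the control library had 0 reads, the exact 95% interval of the ratio starts at 73.7, and the ratio to the level of 3 reads in that library is 91.3. Against sO-L1 the ratios were 157 (61.1 to 580), 43.4 (20.7 to 109), 48.9 (22.1 to 134) and 59.3 (16.1 to 495). With the reads of each group summed, ASO-L1 exceeded ASO-Ctr 78.5-fold (46.6 to 144) and sO-L1 68.5-fold (43.6 to 114). Against sO-L1 the intervals of all 4 replicate numbers overlap. Against ASO-Ctr those of replicates 3 and 4 share only 73.7 to 83.9, and whether the fold differs between replicate numbers was not tested.

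No difference between the sense and the control oligonucleotide was detectable for CCR7 in the summed reads. Summed reads gave a ratio of sO-L1 to ASO-Ctr of 1.15, with an exact 95% interval of 0.545 to 2.47. By counting error alone, the summed reads are compatible with any ratio in that interval. In replicate 3, with 6 against 0 reads, the interval started at 1.10, and in replicates 1, 2 and 4 it spanned 1.

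In the fit across all genes the log2 fold change of CCR7 was 6.16 (SE 0.30) against ASO-Ctr, 71.7-fold, and 6.06 (SE 0.29) against sO-L1, 66.9-fold. These comparisons share the ASO-L1 libraries and are not independent. SE here and below is the absolute log2 fold change divided by the square root of edgeR's quasi-likelihood F statistic. For CCR7 it is narrower than the exact intervals of the summed reads, which cover counting error only, so it understates the error. The log2 fold change against ASO-Ctr is the largest of the 17264 genes that passed the filter on low counts. The next were ANXA1 at log2 5.57, which encodes the phospholipid-binding protein annexin A1, GPER at 5.13, a membrane oestrogen receptor of the same receptor superfamily, and TRH at 4.50, thyrotropin-releasing hormone. Against sO-L1 CCR7 ranked 2 of 17264, behind C2orf54, whose fitted value of 7.54 rests on 0 reads in all 4 sO-L1 libraries and is no bound. In the authors' deposited table of ASO-L1 against sO-L1, CCR7 has the largest log2 fold change of 20856 genes, 5.97.

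Other genes as low in the controls are given as a description, since CCR7 was selected on this pattern. Of the genes that passed the filter, 25 had a mean in ASO-Ctr no higher than that of CCR7. Since so low a gene passes the filter mainly through a group where it is higher, 24 of these being called higher is no support for anything. The highest ASO-L1 mean among the others was 1.74 ± 0.597 CPM (SD, n = 4), for ANKRD1, a stress-responsive ankyrin repeat protein of muscle.

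Per kilobase of annotated exon, CCR7 stood at 0.0453 ± 0.0359 CPM in ASO-Ctr, 0.0480 ± 0.0181 in sO-L1 and 3.58 ± 2.53 in ASO-L1 (SD, n = 4). Among the 14512 genes with a length (84.1% of those that passed the filter), these means fall at percentiles 1.31, 1.38 and 49.8. In the single ASO-L1 libraries the percentile was 64.5, 40.4, 49.1 and 35.4. The message thus went from the bottom of the genes measured to their middle, where the median was 3.62 CPM per kilobase. In bulk RNA, a few cells with much CCR7 RNA and many cells with little cannot be told apart.

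The deposited log2 table, to which the authors applied a batch correction per the labels, shows a different spread. There the 4 ASO-L1 values were 3.05, 2.80, 2.97 and 2.76, with an SD of 0.135, against an SD of 0.953 in log2 CPM from the counts (prior count 2). In both tables replicate 1 was the highest and replicate 4 the lowest. In ASO-Ctr the SD went the other way, from 0.975 to 1.77, and in sO-L1 from 0.383 to 0.632. Over the 429 genes called more than 2-fold higher with ASO-L1 against ASO-Ctr, the median SD in ASO-L1 was 0.436 in log2 CPM from the counts and 0.253 in the deposited values, and it was smaller in the deposited values in 368. The 2 tables also differ in the cutoff and may differ in normalization and offset, and the part of the batch correction alone was not tested.

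**Figure D2:**
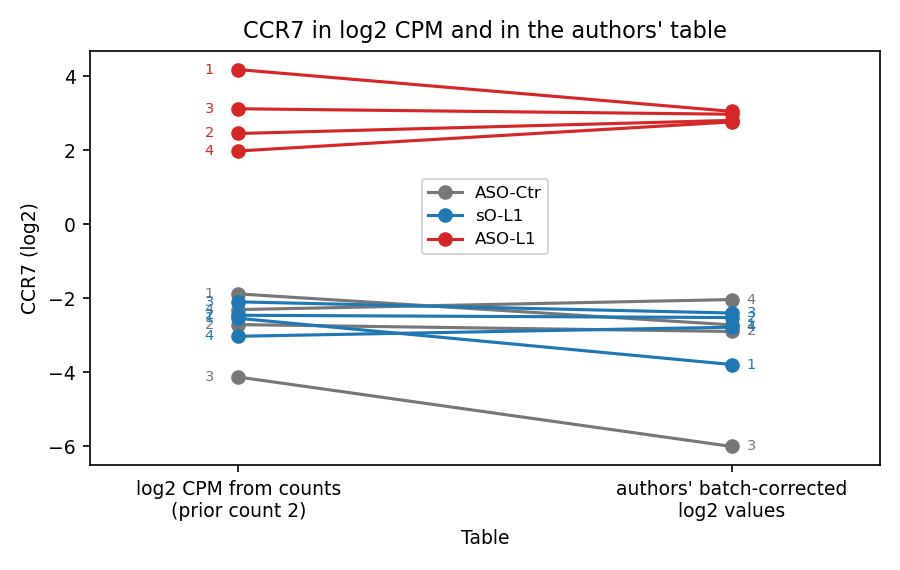
CCR7 on a log2 scale in each library, from the counts (left) and in the authors' batch-corrected table (right); lines join a library's 2 values and small digits are replicate numbers. The ASO-L1 values close from a range of 2.20 to 0.285, and ASO-Ctr replicate 3, the library with 0 reads, moves from -4.13 to -6.00.

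Other genes had a similar profile over the 12 libraries. Each gene's CPM was written as a percent of its own highest library, and likeness to CCR7 was the mean absolute difference over the libraries in percentage points. Among the 10 closest genes were ANXA1 at 2.48 points, TRH at 2.52, STMN4 at 3.37 (a stathmin that acts on microtubules) and C2orf54 at 4.21, then DMRT1 at 4.65 (a transcription factor of the testis), TWIST1 at 5.09 (a transcription factor of mesenchyme), PEAR1 at 5.32 (a platelet receptor), IL11 at 6.37 (a cytokine) and HSPB8 at 6.56 (a small heat shock protein). The 11th gene was at 6.59, so the list has no sharp end. Some of these profiles rest on few reads over the 12 libraries, 91 each for C2orf54 and DMRT1 and 195 for TRH. With the root mean square of log2 values as the measure, DMRT1 ranked 28 and IL11 21. The median over all 17263 other genes was 66.7 points and the 1st percentile 23.4. These genes rose in the comparison that chose CCR7, and no test is given for them.

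ANXA1 stood at 20.9, 9.43, 8.69 and 4.61 CPM in ASO-L1 replicates 1 to 4 and reached at most 0.516 CPM in the other 8 libraries. TRH stood at 2.99, 0.655, 1.62 and 0.609 CPM in ASO-L1 and at most 0.171 elsewhere. In both, as in CCR7, replicate 1 was the highest ASO-L1 library and replicate 4 the lowest, which their choice by likeness favours.

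That order of libraries was common. Among the 429 genes called more than 2-fold higher with ASO-L1 against ASO-Ctr, replicate 1 was the highest ASO-L1 library in 335 (78.1%), replicate 4 the lowest in 252 (58.7%), and all 4 libraries came in the order of CCR7 in 119 (27.7%). The replicate number is the only label that goes with this order, and what it marks was not tested. Without replicate 1 in all 3 groups, 6 of the 10 most alike genes remained among the closest 10. ANXA1, TRH, STMN4, C2orf54 and TWIST1 were among these.

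**Figure D3:**
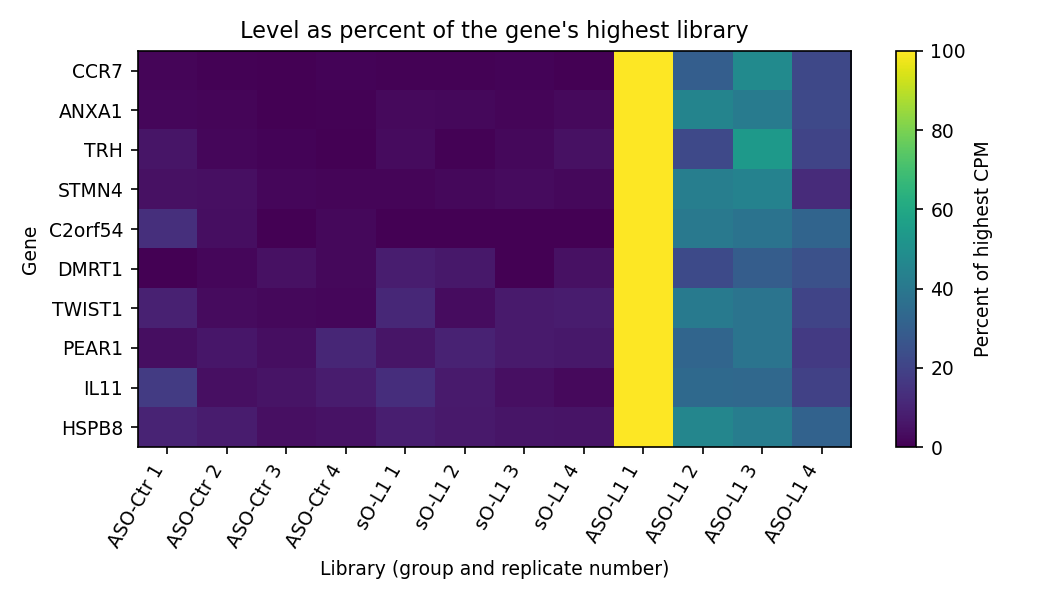
Level of CCR7 (top row) and of 9 of the 10 genes most like it in each of the 12 libraries, as percent of the gene's own highest CPM (colour scale 0 to 100). ASO-L1 replicate 1 is the highest library for all 10 genes shown, and no other-group library reaches more than 17.4% (IL11 in ASO-Ctr replicate 1). The genes were chosen for likeness to CCR7 over these same libraries, so both features follow in part from the choice.

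The ligands of CCR7 were at or near 0. CCL19 had 1 read in all 12 libraries and CCL21 had 0. The scavenging receptor ACKR4, listed under its older symbol CCRL1, had 114 reads in all, at 0.279 ± 0.141 CPM in ASO-Ctr, 0.306 ± 0.0586 in sO-L1 and 0.217 ± 0.135 in ASO-L1 (SD, n = 4). Its log2 fold change against ASO-Ctr was -0.33 (SE 0.48, edgeR adjusted p = 0.608), and its groups overlapped.

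Other chemokine receptors were mostly too low to test. Calls from here on are at an adjusted p under 0.05 in edgeR's quasi-likelihood test over 17264 genes. With ASO-L1 against ASO-Ctr, 44.3% of all genes were called, 21.2% higher and 23.1% lower, with a median log2 fold change of -0.00279. Of 22 other receptors, 15 were too low to test (at most 0.577 CPM, 5 of them with 0 reads), and of the 7 tested, 1 was called higher and 1 lower, with a median of -0.10. The receptor called higher was CXCR6, the receptor of CXCL16, at log2 0.82 (SE 0.30, edgeR adjusted p = 0.0332). CXCR6 stood at 0.556, 0.430, 0.409 and 0.464 CPM in ASO-Ctr and at 1.48, 0.921, 0.412 and 0.609 in ASO-L1, so the groups overlap. Its call was lost in 7 of 16 leave-outs of libraries, with DESeq2 (adjusted p = 0.0676) and without the replicate number in the edgeR model (adjusted p = 0.0532).

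ACKR3, a scavenging receptor of CXCL12 listed as CXCR7, fell from 2.79 ± 0.322 to 1.49 ± 0.266 CPM (SD, n = 4), at log2 -0.89 (SE 0.19, edgeR adjusted p = 0.00111). Its 4 ASO-L1 libraries, 1.12 to 1.71 CPM, lay below its 4 ASO-Ctr libraries, 2.41 to 3.12. CXCR4, the homing receptor for CXCL12 and the highest per kilobase of the receptors with a GENCODE length, stood at 3.62, 3.72 and 3.44 CPM per kilobase in ASO-Ctr, sO-L1 and ASO-L1. Its log2 fold change was -0.10 (SE 0.11, edgeR adjusted p = 0.497). The mean of CCR7 in ASO-L1, at 3.58 CPM per kilobase, was near that of CXCR4, but the single libraries did not match. In ASO-L1 replicates 1 to 4, CXCR4 stood at 4.33, 5.21, 10.3 and 10.7 CPM. CCR7 stood at 18.0, 5.41, 8.63 and 3.88 CPM in the same libraries, highest where CXCR4 was lowest.

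Against sO-L1, 44.0% of all genes were called, 21.1% higher and 22.9% lower, and of the 7 receptors 0 were called higher and 1 lower. CCR8, a receptor of CCL1 known from regulatory T cells, stood at 4.44, 2.79, 2.41 and 3.57 CPM in sO-L1 and at 2.05, 1.38, 0.928 and 1.42 in ASO-L1, with no overlap. That is a log2 fold change of -1.19 (SE 0.14, edgeR adjusted p = 4.94e-06). CCR8 was also called higher in sO-L1 against ASO-Ctr, a comparison in which 0.29% of all genes were called, 0.0695% higher and 0.22% lower. Its log2 fold change there was 0.81 (SE 0.14, edgeR adjusted p = 0.0124), and this call was lost in 10 of 16 leave-outs and without the replicate number (adjusted p = 0.609). Against ASO-Ctr, ASO-L1 gave CCR8 a log2 fold change of -0.38 (edgeR adjusted p = 0.0585).

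Of 43 chemokine ligands, 31 were too low to test (at most 0.283 CPM, 15 with 0 reads). With ASO-L1 against ASO-Ctr, 2 of the 12 tested were called higher and 4 lower, with a median log2 fold change of -0.29. CXCL14, an epithelial chemokine, rose from 0.342, 0.119, 0.252 and 0.116 CPM to 2.38, 1.16, 1.65 and 1.19, with no overlap. Its log2 fold change was 2.96 (SE 0.35, edgeR adjusted p = 3.8e-06), and against sO-L1 it was 2.30 (SE 0.31, edgeR adjusted p = 1.67e-05). CCL2, which attracts monocytes, rose 1.43-fold (edgeR adjusted p = 0.00363). CXCL5, which attracts neutrophils, fell by 0.67 on the log2 scale (edgeR adjusted p = 6.42e-05). CCL26 fell by 0.53 (edgeR adjusted p = 0.0118, lost in 2 of 16 leave-outs). CCL28 fell by 0.68 (edgeR adjusted p = 0.00508, and 0.184 without the replicate number). PF4 fell by 0.90 (edgeR adjusted p = 0.0282, lost in 5 of 16 leave-outs, and 0.0767 without the replicate number). CXCL12, the ligand with the highest level per kilobase among those with a length in GENCODE, was at 8.51 CPM per kilobase in ASO-Ctr and 8.18 in ASO-L1, log2 -0.05 (edgeR adjusted p = 0.482). Against sO-L1, 1 ligand was called higher, CXCL14, and 4 lower, again CXCL5, CCL26, CCL28 and PF4. There 41.7% were called, against 44.0% of all genes.

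**Figure D4:**
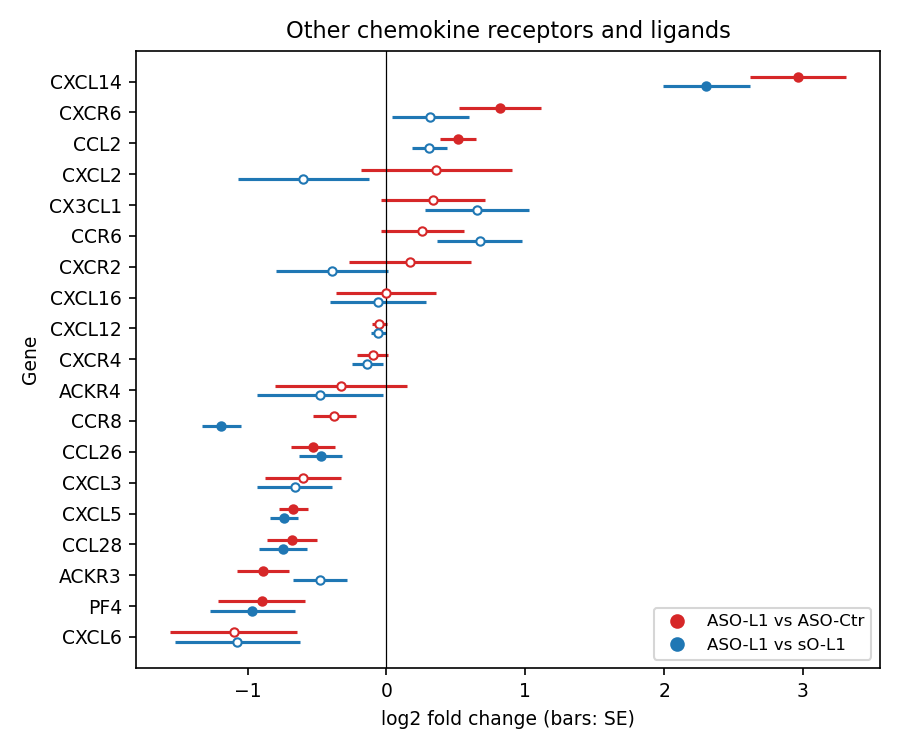
Log2 fold changes (bars are SE) of the other chemokine receptors and ligands that could be tested, for ASO-L1 against ASO-Ctr (red) and against sO-L1 (blue); filled points have an edgeR adjusted p under 0.05. CXCL14, at 2.96 and 2.30, is the one gene drawn with a value over 1, and CCR7, at 6.16 and 6.06, is not drawn.

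Machinery through which chemokine receptors signal moved in both directions. Of 51 genes, 47 could be tested. With ASO-L1 against ASO-Ctr, 14 were called higher and 15 lower (61.7% called, against 44.3% of all genes), a median log2 fold change of -0.03. Against sO-L1 it was 10 and 11 (44.7%, against 44.0% of all genes). NRP2, a co-receptor that carries polysialic acid on dendritic cells, rose from 3.26 ± 0.301 to 8.72 ± 1.66 CPM (SD, n = 4), at log2 1.41 (SE 0.11, edgeR adjusted p = 7.83e-08). RGS16, a GTPase activator that dampens Gi signalling, rose by log2 0.63 (edgeR adjusted p = 1.43e-06), GNG12, a G protein gamma subunit, by 0.59 (edgeR adjusted p = 2.62e-05) and the kinase ROCK2 by 0.47 (edgeR adjusted p = 0.000352).

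DOCK2, an exchange factor for Rac needed for lymphocyte migration, fell from 8.03 ± 1.44 to 3.65 ± 0.441 CPM (SD, n = 4), at log2 -1.12 (SE 0.14, edgeR adjusted p = 6.59e-06). GRK3 (listed as ADRBK2), a kinase that phosphorylates activated receptors, fell by 0.46 on the log2 scale (edgeR adjusted p = 4.23e-06). PLCB3, a phospholipase C, fell by 0.36 (edgeR adjusted p = 0.000176) and ROCK1 by 0.31 (edgeR adjusted p = 3.21e-05). Among the Gi subunits, chosen for mention after their values were seen, GNAI1 and GNAI2 were called lower (log2 -0.22 and -0.20) and GNAI3 higher (0.11) against ASO-Ctr. Parts of the receptor machinery were thus present in all groups.

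Transcription factors tied to CCR7 expression in lymphocytes and dendritic cells were mostly measurable. Of 29, 28 could be tested, and with ASO-L1 against ASO-Ctr 12 were called higher and 6 lower, a median log2 fold change of 0.13. That is 64.3% called, against 44.3% of all genes. The list was chosen with earlier results of these data known, and no set test was run. Against sO-L1 the counts were 13 and 6 (67.9% called, against 44.0% of all genes). The 4 with the smallest adjusted p among those higher all belong to the AP-1 and ATF family of basic leucine zipper factors. Not all of that family on the list rose. FOSB (log2 0.03, edgeR adjusted p = 0.939) and JUNB (0.05, edgeR adjusted p = 0.709) were not called, and JUND was called higher at 0.30. KLF2 (1.26), RUNX1 (1.18) and IRF4 (1.01), outside the family, were also called higher. These further genes were chosen for mention after their values were seen. FOSL2 stood at 5.18, 5.47, 6.80 and 6.29 CPM in ASO-Ctr and at 22.9, 18.6, 22.5 and 17.3 in ASO-L1, log2 1.77 (SE 0.11, edgeR adjusted p = 8.5e-09). JUN rose 2.10-fold, from 64.2 ± 5.74 to 135 ± 15.3 CPM (SD, n = 4, edgeR adjusted p = 1.1e-08). FOSL1 rose from 1.07, 0.931, 1.13 and 0.725 CPM to 10.1, 6.33, 4.47 and 3.65, log2 2.59 (SE 0.17, edgeR adjusted p = 1.25e-08). ATF3, an inducible stress factor, rose 3.56-fold (edgeR adjusted p = 1.63e-08). In FOSL2, JUN, FOSL1 and ATF3, as in CCR7, replicate 1 was the highest ASO-L1 library and replicate 4 the lowest. That is common, with replicate 1 highest in 78.1% and replicate 4 lowest in 58.7% of the 429 genes called more than 2-fold higher. None of the 4 had an ASO-L1 library within the range of the other groups.

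FOS, the partner of JUN in AP-1, was called lower at log2 -0.30 (edgeR adjusted p = 0.00549), a call lost without the replicate number (0.190). RELB, an NF-kB subunit of dendritic cell maturation, fell from 7.18 ± 1.01 to 3.91 ± 0.639 CPM (SD, n = 4), log2 -0.85 (SE 0.13, edgeR adjusted p = 3.88e-05). HIF1A fell by 0.35 on the log2 scale (edgeR adjusted p = 1.89e-05) and STAT3 by 0.18 (edgeR adjusted p = 0.00232). The other NF-kB subunits were chosen for mention after their values were seen. NFKB1 (log2 0.43), NFKB2 (0.70) and REL (0.66) were called higher and RELA was not called (0.06, edgeR adjusted p = 0.521).

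**Figure D5:**
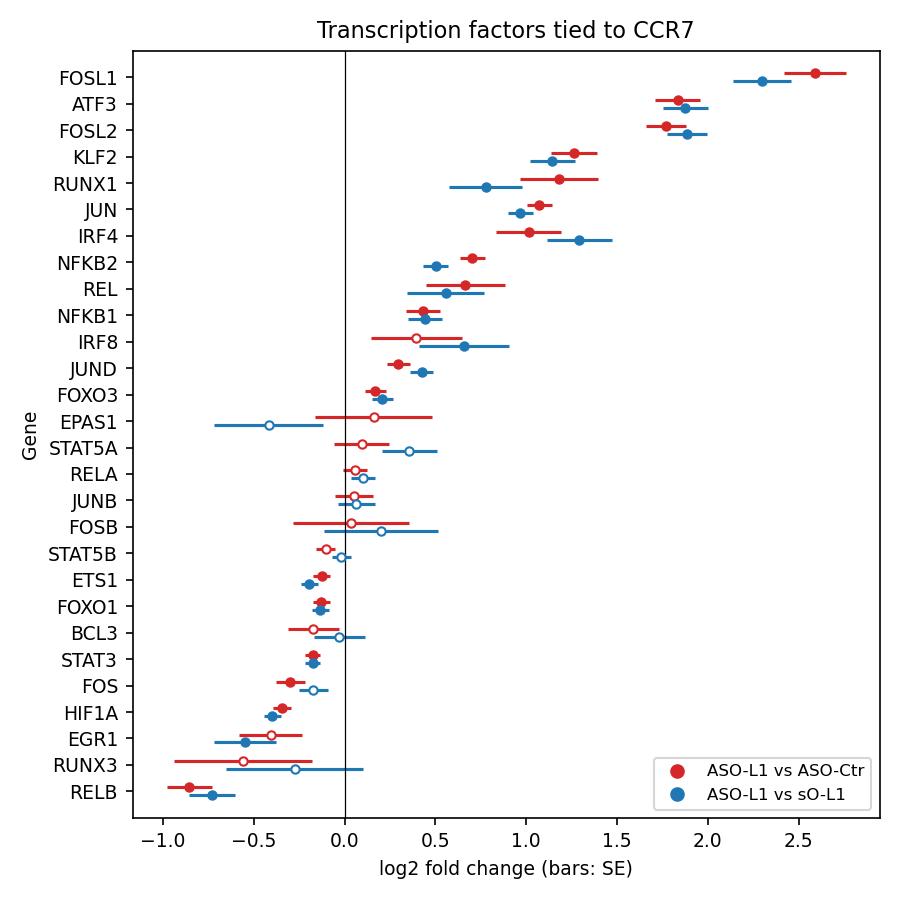
Log2 fold changes (bars are SE) of the 28 transcription factors tied to CCR7 that could be tested, for ASO-L1 against ASO-Ctr (red) and against sO-L1 (blue); filled points have an edgeR adjusted p under 0.05. FOSL1, ATF3 and FOSL2 lie between 1.77 and 2.59 in both comparisons, and RELB is lowest at -0.85 and -0.73.

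Other targets of NF-kB were called at a rate near that of all genes. Of 25, 19 could be tested, and 4 were called higher and 4 lower with ASO-L1 against ASO-Ctr. That is 42.1% called, against 44.3% of all genes. With sO-L1 as reference, 4 were called higher and 3 lower (36.8%, against 44.0% of all genes). ICAM1, an adhesion molecule, rose at log2 1.37 (SE 0.21, edgeR adjusted p = 5.29e-05). BIRC3, an inhibitor of apoptosis, rose at 1.68 (SE 0.46, edgeR adjusted p = 0.00691), IER3 at 0.56 (edgeR adjusted p = 0.0013) and NFKBIA at 0.25 (edgeR adjusted p = 0.0125), the last lost in 2 of 16 leave-outs. TRAF1 fell by 0.63 on the log2 scale (edgeR adjusted p = 0.00919), SOD2 by 0.21 (edgeR adjusted p = 0.000623), NFKBIB by 0.25 (edgeR adjusted p = 0.0132, lost in 4 of 16 leave-outs) and CD83 by 0.24 (edgeR adjusted p = 0.0242, lost in 8 of 16 leave-outs and with DESeq2, 0.0541).

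Core pluripotency markers were present in all groups, and defining markers of leukocytes were near 0. The summed level of the pluripotency marker list was lower in ASO-L1. POU5F1, a core pluripotency factor, stood at 1168 ± 63.3, 1194 ± 58.7 and 1238 ± 60.9 CPM in ASO-Ctr, sO-L1 and ASO-L1 (SD, n = 4), and against ASO-Ctr its log2 fold change was 0.09 (edgeR adjusted p = 0.128). The log2 fold change of NANOG was 0.05 (edgeR adjusted p = 0.338). Of 16 embryonic stem cell markers, 2 were called higher and 7 lower in that comparison (56.25% called, against 44.3% of all genes). The median log2 fold change of these markers was -0.06. Their summed level was lower in ASO-L1 without overlap, at 11362 to 11833 CPM, against 12872 to 13061 in ASO-Ctr and 12609 to 13248 in sO-L1. Abundant genes weigh most in that sum, such as DNMT3B, at 2505 CPM in ASO-Ctr and 1764 in ASO-L1, and LIN28A, at 2032 and 1743. TERF1, a telomere protein, fell by 0.62 on the log2 scale (edgeR adjusted p = 3.18e-08), the DNA methyltransferase DNMT3B by 0.51 (edgeR adjusted p = 1.03e-06) and the RNA-binding protein LIN28A by 0.22 (edgeR adjusted p = 0.000103). ZFP42 fell by 0.14 (edgeR adjusted p = 0.00477, lost in 1 of 16 leave-outs, and 0.227 without the replicate number). DPPA4 rose by 0.19 (edgeR adjusted p = 0.00107) and DPPA2 by 0.25 (edgeR adjusted p = 0.0124, lost in 4 of 16 leave-outs, and 0.281 without the replicate number). PTPRC, the CD45 antigen of all leukocytes, had 8 reads in all 12 libraries, CD3E of T cells 15, and MS4A1 of B cells 0.

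Of 17 naive T cell markers, 6 could be tested and 1 was called higher (16.7% called, against 44.3% of all genes). The summed level of the T cell list ran from 31.2 to 37.5 CPM in ASO-Ctr, 29.3 to 33.5 in sO-L1 and 30.9 to 33.5 in ASO-L1. Of 10 B cell markers, 4 could be tested, with 0 called higher and 1 lower (25.0% called). The marker called lower was CR2 (log2 -0.38, edgeR adjusted p = 0.00136, and 0.0509 without the replicate number). The B cell list summed to 11.2 to 14.8 CPM in ASO-Ctr, 11.5 to 15.1 in sO-L1 and 8.97 to 12.1 in ASO-L1.

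Of 18 markers of mature dendritic cells, 12 could be tested, with 2 called higher and 5 lower. That is 58.3% called, against 44.3% of all genes. LAMP3, a lysosomal membrane protein of mature dendritic cells, stood at 0.128, 0.167, 0.472 and 0.348 CPM in ASO-Ctr and at 2.38, 0.752, 0.894 and 0.464 in ASO-L1. The lowest ASO-L1 library, replicate 4, lay within the ASO-Ctr range, and the log2 fold change was 1.81 (SE 0.46, edgeR adjusted p = 0.00386). BIRC3 was the other gene called higher. IDO1, an enzyme of tryptophan breakdown, fell by 1.20 on the log2 scale (edgeR adjusted p = 1.78e-07), CD40 by 0.50 (edgeR adjusted p = 0.00667), HLA-DRA by 0.58 (edgeR adjusted p = 0.00323), CD74 by 0.42 (edgeR adjusted p = 0.00403, lost in 1 of 16 leave-outs), and CD83 as given above. This list summed to 953 to 999.6 CPM in ASO-Ctr, 931 to 1004 in sO-L1 and 908 to 976 in ASO-L1, most of it FSCN1 and MARCKSL1. These 3 sums are carried largely by genes that all groups express, such as TCF7 and LCK among the T cell genes and CR2 among the B cell genes, so a small number of leukocytes would hardly move them, and the part of such cells in the CCR7 result was not tested.

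Fibroblast markers were looked at because TWIST1 is among the genes most like CCR7. Of 16, 12 could be tested, with 3 called higher and 5 lower against ASO-Ctr (66.7% called, against 44.3% of all genes). Those higher were TWIST1, THY1 (log2 0.42, edgeR adjusted p = 8.39e-06) and S100A4 (0.74, edgeR adjusted p = 0.0192, lost in 7 of 16 leave-outs and with DESeq2). Those lower were COL1A2 (-0.73), COL5A1 (-0.47), PDGFRA (-0.90), FBN1 (-0.31) and LOX (-0.37), of which COL5A1 was lost in 2 and LOX in 7 of 16 leave-outs, and LOX also without the replicate number (edgeR adjusted p = 0.0941). The list summed to 153 to 179 CPM in ASO-Ctr, 141 to 169 in sO-L1 and 142 to 165 in ASO-L1.

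Some receptors of other leukocyte attractants also moved. Of 36, 19 could be tested, and 6 were called higher and 1 lower against ASO-Ctr, with a median log2 fold change of -0.03. That is 36.8% called, against 44.3% of all genes. LTB4R, a receptor of leukotriene B4, rose from 7.39 ± 1.09 to 14.1 ± 3.58 CPM (SD, n = 4), log2 0.91 (SE 0.16, edgeR adjusted p = 0.000261). LTB4R2, the second receptor for it, rose by 0.79 (edgeR adjusted p = 0.00575), PTAFR, the receptor of platelet-activating factor, by 0.74 (edgeR adjusted p = 0.00253) and S1PR3, a sphingosine phosphate receptor, by 0.69 (edgeR adjusted p = 0.00186). LPAR4, a lysophosphatidic acid receptor, fell by 0.49 (edgeR adjusted p = 0.000213).

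Of the 3 nearest genes on either side of CCR7 on chromosome 17, 4 could be tested. Against ASO-Ctr, 0 of these were called higher, beside 21.2% of all genes. By gene order in RefSeq, its nearest neighbours are TNS4 on one side and SMARCE1 on the other, both on the minus strand like CCR7. TNS4, a tensin, was too low to test, with 77 reads in all 12 libraries and means of 0.148, 0.209 and 0.198 CPM in ASO-Ctr, sO-L1 and ASO-L1. SMARCE1, a subunit of the SWI/SNF chromatin remodelling complex, stood at 80.0 ± 7.93 CPM in ASO-Ctr and 74.7 ± 4.86 in ASO-L1 (SD, n = 4), log2 -0.10 (edgeR adjusted p = 0.108). IGFBP4, next beyond TNS4, was at log2 -0.07 (edgeR adjusted p = 0.572), but against sO-L1 it was called higher at 0.24 (SE 0.09, edgeR adjusted p = 0.0397), a call absent in 11 of 16 leave-outs and without the replicate number (0.312). KRT222, next beyond SMARCE1, was at log2 -0.00249 against ASO-Ctr (edgeR adjusted p = 0.992). TOP2A, the third on the side of TNS4, fell by 0.17 (edgeR adjusted p = 0.00398, lost in 1 of 16 leave-outs), and KRT24, the third on the other side, had 0 reads.

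Of the 10 protein-coding genes on each side, 20 in all, 11 could be tested. Against ASO-Ctr, 3 were called higher and 3 lower (54.5% called, beside 44.3% of all genes), with a median log2 fold change of -0.07. RARA, a retinoic acid receptor, was called higher at log2 0.46 (SE 0.08, edgeR adjusted p = 0.000175), KRT10 at 0.23 (edgeR adjusted p = 0.0235, lost in 7 of 16 leave-outs) and CASC3 at 0.13 (edgeR adjusted p = 0.0179, lost in 6). CDC6 was called lower at -0.25 (edgeR adjusted p = 0.000489) and RAPGEFL1 at -0.39 (edgeR adjusted p = 0.00409, lost in 1), beside TOP2A. No tested neighbour moved by as much as 1.5-fold in either direction.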

How the data were processed

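Poly(A) RNA from 80 to 130 ng of total RNA was sequenced as stranded libraries. Deposited counts are raw reads per gene after removal of duplicates, as the labels say, which lowers abundant genes most. The submitters' processing notes name hg19 as the build, and as tools Subread 1.5.0 with featureCounts, TopHat2 2.0.13 and Trim Galore 0.4.0. Which gene annotation was used is not stated in these sources. Deposited log2 values carry a cutoff of 0.2 and a batch correction per the labels. The authors' comparison table gives log2 fold changes and p-values, and a deposited score (moderated statistic, log odds) that was not used.

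CPM were scaled by TMM. Tests used edgeR 4.0.16 in R 4.3.3 (filterByExpr, minimum count 10, quasi-likelihood F-tests, two-sided, Benjamini-Hochberg over 17264 genes, called under 0.05) on 12 libraries, modelling group plus replicate number as a block. The number was kept because same-numbered libraries of different groups deviated together in 10549 genes (12 pairs, r from 0.216 to 0.725, threshold 0.1), and the labels record a batch correction. Residual degrees of freedom were 6, and 0 pairs of libraries were identical. SE was derived from the F statistic (absolute log2 fold change over its square root) and is not a standard error of the fitted coefficient. Alternatives were no block, DESeq2 1.42.0, limma 3.58.1 on the deposited log2 values, other scalings and filters, and leaving out libraries (16 leave-outs: 12 single libraries and each of 4 replicate numbers). The fit was tested on simulated data.

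Exact Poisson and conditional binomial 95% intervals cover counting error only. Lengths and the transcript come from GENCODE 29 and gene order from RefSeq, both on another build than hg19, so no coordinates are given. Named genes are CCR7, its ligands and ACKR4, 3 neighbours on each side, called list members (all where 5 or fewer in a direction, otherwise the 4 with the smallest adjusted p), the 3 next largest rises and the 10 most alike genes. CCR7 and all 13 lists were chosen with earlier results of these data known. A few genes under this rule are not reported here.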

Additional observations from a re-analysis of the deposited data

Results flagged for a closer look

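Each group of 4 libraries was checked for a highest or lowest library whose gap to the next one took most of the group's range (Dixon's test at its 95% critical value), for 89 named genes in 3 groups, 267 groups in all. Chance flags about 1 in 20 groups, and 14 were flagged, which is near that rate. CCR7 was not among them. Of the 14, 9 concern a replicate 1 library.

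Among the genes most like CCR7, ASO-L1 replicate 1 stood far above the other ASO-L1 libraries for C2orf54 (1.26 CPM) and DMRT1 (1.41 CPM), and ASO-Ctr replicate 1 stood above its group for TWIST1 (0.728 CPM). Both ASO-L1 values come from the library in which CCR7 was highest. C2orf54 and DMRT1 were chosen for a profile like that of CCR7, so this follows in part from the choice.

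Other ASO-Ctr libraries that stood apart were replicate 1 for PF4 (1.93 CPM), PLCB3 (126 CPM) and ZFP42 (311 CPM), and replicate 3 for PDGFRA (16.2 CPM). In sO-L1 they were replicate 1 for CASC3 (152 CPM), STAT3 (155 CPM) and POU5F1 (1282 CPM), and replicate 2 for HLA-DRA (3.03 CPM) and NANOG (121 CPM). In ASO-L1 they were replicate 4 for THY1 (64.6 CPM) and replicate 2 for KRT222 (1.75 CPM).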

How the results depend on the processing

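The log2 fold change of CCR7 in ASO-L1 against ASO-Ctr was 6.16, between 6.16 and 6.33 under other tools, scalings and filters and between 5.72 and 6.62 when libraries were left out; without the replicate block it was 6.33, and 6.15 against sO-L1. Counts of genes called in sO-L1 against ASO-Ctr depended on the setting. Genes called higher numbered 12, with 2 without the replicate block, 28 with DESeq2, 46 without a filter, 83 with limma on the deposited log2 values, and 1 to 169 in leave-outs. Genes called lower numbered 38, with 15 without the block, 67, 95 and 126 in the same order, and 8 to 241 in leave-outs. The cause was not tested. Of the 10 genes most like CCR7, 6 were kept with the root mean square of log2 values as the measure, and 6 to 9 when a replicate number was left out. List counts stayed within 1.5 times in 1660 alternatives and moved in 134, and calls of named genes held in 3135 and were lost in 198. Control levels of CCR7 rest on 0 to 7 reads per library, which limits every fold change given for it.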
